A study of Mus musculus with 10 samples.

Results

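Complement is a cascade of secreted proteases and opsonins that marks and lyses foreign or damaged cells. Its classical route starts with the C1r and C1s proteases of the C1 complex, and all routes meet at the cleavage of C3. Factor B, once cleaved by factor D, supplies the protease of the alternative-route convertase, which amplifies C3 cleavage. Host cells restrain the cascade with the secreted C1 inhibitor and with the membrane proteins CD55, which speeds the decay of the convertases, and CD59, which blocks the lytic pore. Liver makes most circulating complement, while fibroblasts, epithelial cells and macrophages make some of it locally. Described here are 8 complement genes of 49568 gene symbols in the table, chosen by name with earlier results of these data known. They are the proteases C1ra and C1s1, the central component C3, the alternative-route genes Cfb and Cfd, and the regulators Serping1, Cd55 and Cd59a. Cell lines from mouse pancreatic tumours were profiled by messenger RNA sequencing, with 5 lines of the KPCAf/f genotype (A1693, A1809, A1925, A2441 and A3992) and 5 of the KPC genotype (A1081, A1620, A1625, A2031 and A2032). KPC denotes a widely used Cre-driven mouse model of pancreatic cancer. In KPCAf/f the A is read as Arid1a, the SWI/SNF subunit gene of the series title, and f/f as floxed alleles. The Cre driver, the exact alleles, strain, age, clonality and whether each line had its own mouse are not given in the labels, so p-values measure the spread between these lines. All lines were grown in DMEM with serum, and no treatment is named.

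Each line gave 1 library, with 15124888 to 20419830 reads assigned to genes, and 1 read was worth 0.818 to 1.32 normalized counts. Arid1a averaged 1465 ± 221 normalized counts in KPCAf/f lines and 2114 ± 844 in KPC lines (SD, n = 5 each; limma adjusted p = 0.563), and its gene-level count includes exons outside any deleted part. The labels call every line pancreatic cancer cells. A list of 8 pancreatic epithelial genes summed to 6871 to 114444 normalized counts in KPCAf/f lines, lowest in A1693, and to 128212 to 271900 in KPC lines. All 8 were tested and limma called 0 of them, where it called 1.36% of all tested genes higher and 0.39% lower. Epcam averaged 1421 ± 2964 in KPCAf/f lines and 300 ± 329 in KPC lines, and Sox9 445 ± 396 and 390 ± 315. The other listed genes had lower means in KPCAf/f lines. A list of 10 fibroblast genes summed to 14717 to 88400 in KPCAf/f lines and 62.9 to 173 in KPC lines. Of these genes 5 met the filter on low counts used for testing, 3 of them (Col1a2, Col3a1 and Pdgfrb) through the KPCAf/f lines alone, so no count of calls is given for this list. In bulk cultures, more cells of a type and more RNA per cell cannot be told apart. Reads of 4 Y-linked genes numbered 0 to 3 per KPCAf/f line and 1148 to 3415 per KPC line, so genotype and Y-linked expression cannot be told apart. The slope of a line's log2 level on log2 transcript length was 0.10 to 0.15 in KPCAf/f lines, against -0.65 in KPC line A1620 and -0.02 to 0.04 in the other KPC lines. With a correction for length the Arid1a log2 fold change was -0.83 (limma adjusted p = 0.0469). This was the only 1 of 22 alternative settings past the threshold for Arid1a. Over all of them its log2 fold change ran from -0.83 to -0.24 and the adjusted p from 0.0469 to 0.743.

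Of the 8 genes, Cd59a alone passed the test and rose in KPCAf/f lines. C1ra and C1s1 had higher means in KPCAf/f lines without passing, Serping1 was near the detection floor in all KPC lines and varied 471-fold among KPCAf/f lines, and Cfd had no read in any line. The genotypes overlapped for C3, Cfb and Cd55, and KPCAf/f line A1809 also fell inside the KPC range for C1s1 and Serping1. The test was limma on log2(normalized count + 1), and its p-values were adjusted by Benjamini-Hochberg over 13089 genes, those reaching 10 normalized counts in 5 or more lines. 6 of the 8 genes met that filter and Serping1 and Cfd did not. By this test 1 of the 6 was higher, where 1.36% of all tested genes were, and 0 were lower, where 0.39% of all tested genes were. Cd59a reached 10 normalized counts in all 5 KPCAf/f lines and, among KPC lines, in A2031 alone. The KPCAf/f lines were thus enough for Cd59a to meet the filter. Its calls and its lack of overlap are therefore not read against the shares of all tested genes given here. At an unadjusted p under 0.05, limma had 3 of the 6 higher and 0 lower, where 8.39% of tested genes were higher and 6.26% lower. Among tests on the recovered reads, edgeR called 0 of the 6 in either direction, where it called 1.11% of genes higher and 0.206% lower. limma-voom called 1 higher and 0 lower, as the main test did, where it called 0.581% of genes higher and 0.222% lower. DESeq2 called 3 higher (Cd59a, C1ra and C1s1) and 0 lower, where it called 4.06% of genes higher and 1.64% lower, and limma with array weights called the same 3, where it called 3.08% higher and 1.4% lower. limma called 0 of them with quantile scaling (1.31% of genes higher, 0.474% lower), with a mean filter of 100 normalized counts (1.03% and 0.208%) and without lines A1620 and A1693 (1.08% and 0.336%). Of the 6, only C1ra and Cd55 met that mean filter, so the others could not be called there. Serping1 met it too and was not called. The median log2 fold change of the 6 was 1.75, and that of all tested genes was -0.01. Values of the genotypes did not overlap, with KPCAf/f higher, for 2 of the 6 genes (C1ra and Cd59a) and 2.84% of all tested genes, and 0 of the 6 lay the other way, where 1.69% of tested genes did.

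**Figure D1:**
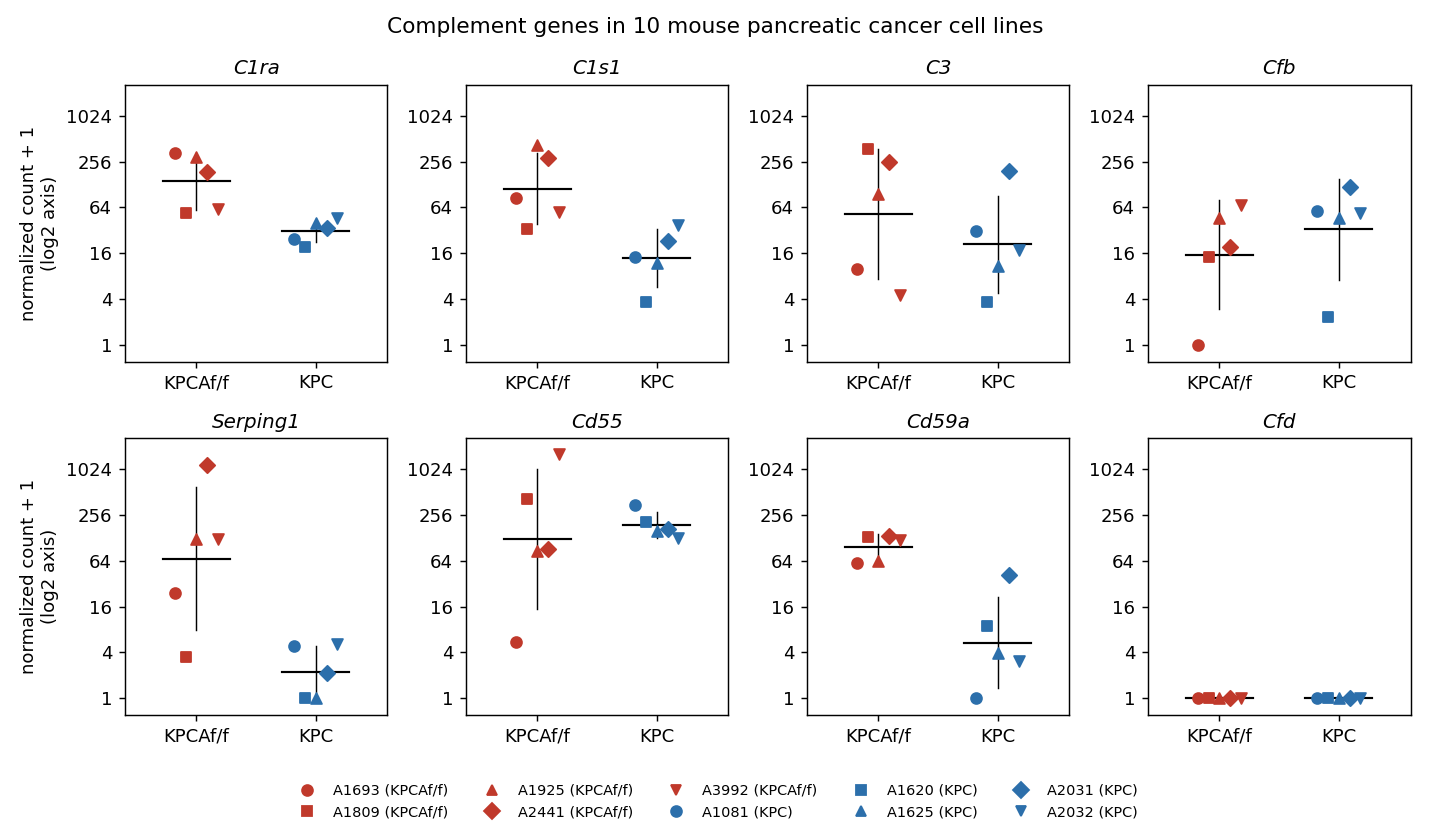
Normalized count + 1 (log2 axis) of the 8 complement genes in each of 10 lines, 5 KPCAf/f (red) and 5 KPC (blue); each symbol is a line, horizontal bars are means on the log2 scale and vertical bars ± 1 SD. All KPCAf/f values of Cd59a and C1ra lie above all KPC values, Serping1 spans 2.46 to 1157 among KPCAf/f lines, and Cfd is at 0 throughout.

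Cd59a encodes a membrane-anchored inhibitor of the lytic pore. Its locus is chr2:104095801-104115354 (GRCm38, plus strand), with its copy Cd59b 4613 bases away. Cd59a had 58.5, 132, 63.2, 134 and 118 normalized counts in KPCAf/f lines A1693, A1809, A1925, A2441 and A3992, against 0, 7.95, 2.94, 40.2 and 2.06 in KPC lines A1081, A1620, A1625, A2031 and A2032. Every KPCAf/f line lay above every KPC line, and A2031 was the one KPC line above 10 normalized counts. KPCAf/f lines differed among themselves by 2.29-fold at most, the narrowest span of the members detected in all 5. The means were 101 ± 37.2 in KPCAf/f lines and 10.6 ± 16.8 in KPC lines (SD, n = 5 each), and the KPC mean without A2031 was 3.24 ± 3.37 (n = 4). The log2 fold change was 4.16 (SE 0.85, limma adjusted p = 0.0339). This call was close to the threshold. Without A2031 the adjusted p was 0.00573, whereas without any 1 of the other 9 lines the call was lost, at adjusted p of 0.0512 to 0.0883. The edgeR adjusted p was 0.164, and over all 21 alternatives the adjusted p ran from 0.00573 to 0.164, with 9 past the threshold. The copy Cd59b, which shares 3.98% of the 50-base windows of the longest Cd59a transcript, was low, at 6.54 ± 1.99 in KPCAf/f lines and 1.64 ± 1.19 in KPC lines, and was not tested. The fibroblast list (14717 to 88400 summed normalized counts in KPCAf/f lines, 62.9 to 173 in KPC lines) and the Y-linked reads split the genotypes without overlap, as Cd59a did, and their part in the Cd59a result was not tested.

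The RefSeq promoter window of Cd59a (GRCm38.p6, chr2:104095551-104095850, plus strand) is shown because this gene carried the single call; it runs from 250 bases before to 50 after the gene start. Capitals mark the one match among the 5 motifs searched, an interferon response motif.
Cd59a: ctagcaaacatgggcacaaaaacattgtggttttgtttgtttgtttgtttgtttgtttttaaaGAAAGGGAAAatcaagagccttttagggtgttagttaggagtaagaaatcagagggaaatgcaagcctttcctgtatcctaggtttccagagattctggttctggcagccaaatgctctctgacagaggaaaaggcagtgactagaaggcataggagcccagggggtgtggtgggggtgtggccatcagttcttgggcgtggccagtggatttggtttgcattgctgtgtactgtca
The motifs, searched on both strands, were NF-kB (GGG and TTCC with 3 bases between), the STAT site GAS (TTCNNNGAA), interferon response (GAAA and GAAA with 2 bases between), C/EBP (TTGCNNAA) and AP-1 (TGANTCA). They occur in 5.56%, 8.30%, 3.44%, 10.8% and 7.81% of 32851 mouse promoter windows of 300 bases. The match in Cd59a starts 187 bases before the gene start. A match describes the letters alone.

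C1ra and C1s1 encode the proteases C1r and C1s, which C1q activates in turn to cleave C4 and C2. They are neighbours on chromosome 6 (GRCm38): C1ra is at chr6:124512405-124523443 (plus strand) and C1s1 at chr6:124530345-124542359 (minus strand), so that their 3′ ends face each other across 6901 bases. C1ra had 327, 52.4, 288, 185 and 59.0 normalized counts in KPCAf/f lines A1693, A1809, A1925, A2441 and A3992, against 23.7, 18.5, 39.1, 33.5 and 45.4 in KPC lines A1081, A1620, A1625, A2031 and A2032. The genotypes did not overlap, although A1809 and A3992 lay just above the highest KPC line. The means were 182 ± 127 in KPCAf/f lines and 32.0 ± 11 in KPC lines (SD, n = 5 each; log2 fold change 2.17, SE 0.58, limma adjusted p = 0.102). The difference missed the threshold in the full set and passed without A1809 (adjusted p = 0.0420).

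C1s1 had 84.6, 31.9, 418, 281 and 54.6 normalized counts in the same 5 KPCAf/f lines, against 13.3, 2.65, 10.8, 22.4 and 36.1 in the same 5 KPC lines. KPCAf/f line A1809 fell inside the KPC range, below A2032, and the other 4 KPCAf/f lines lay above it. The means were 174 ± 168 in KPCAf/f lines (113 ± 114 without A1925, n = 4) and 17.0 ± 12.8 in KPC lines (log2 fold change 3.02, SE 0.82, limma adjusted p = 0.108). For both protease genes DESeq2 passed, with adjusted p of 0.000654 for C1ra and 0.000894 for C1s1, and so did limma with array weights, with 0.0317 and 0.0281. Over all alternatives the adjusted p ran from 0.000654 to 0.246 for C1ra and from 0.000894 to 0.236 for C1s1, and the direction was the same in each.

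The ratio of the proteases was not fixed. Per kilobase of longest transcript, C1ra exceeded C1s1 by 3.82-fold in A1693 and 1.62-fold in A1809, was at 1.07 times C1s1 in A3992, and was at 0.681 and 0.652 times C1s1 in A1925 and A2441. In KPC lines C1ra exceeded C1s1 in all 5, by 1.24-fold in A2032 to 6.92-fold in A1620, where C1s1 had 2 reads. Both genes have near copies further along chromosome 6. C1rb shares 48.0% of the 50-base windows of the longest C1ra transcript and C1s2 shares 24.3% of those of C1s1, and how the authors counted reads that fit both copies is not given, so the split between copies is uncertain. C1rb held 0 to 4.62% of the summed C1ra and C1rb count in KPCAf/f lines and 0 to 4.35% in KPC lines. C1s2 held 1.59 to 6.0% of the summed C1s1 and C1s2 count in KPCAf/f lines and 0 to 13.0% in KPC lines. The antisense gene Gm16567, which overlaps C1s1, had at most 1.69 normalized counts in a KPCAf/f line and 0 in each KPC line.

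The RefSeq promoter windows of these neighbours are shown because their levels were high in the same KPCAf/f lines A1925 and A2441. C1ra is from chr6:124512371-124512670 on the plus strand and C1s1 from chr6:124542310-124542609 on the minus strand (GRCm38.p6), both 5′ to 3′, with the C/EBP and STAT matches in capitals.
C1ra: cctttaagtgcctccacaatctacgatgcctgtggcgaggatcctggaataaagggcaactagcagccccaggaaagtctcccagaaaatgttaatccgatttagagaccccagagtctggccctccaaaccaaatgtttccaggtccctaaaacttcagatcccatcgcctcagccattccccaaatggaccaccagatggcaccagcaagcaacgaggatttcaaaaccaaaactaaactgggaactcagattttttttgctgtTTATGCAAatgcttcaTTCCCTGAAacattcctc
C1s1: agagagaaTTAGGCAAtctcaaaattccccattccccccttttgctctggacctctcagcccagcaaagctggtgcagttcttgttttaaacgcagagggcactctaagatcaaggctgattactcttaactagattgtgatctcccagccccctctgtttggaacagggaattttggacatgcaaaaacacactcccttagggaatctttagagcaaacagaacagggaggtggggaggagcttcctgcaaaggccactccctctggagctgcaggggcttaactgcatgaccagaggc
C1ra held a C/EBP motif from 17 and a STAT motif from 33 bases after the RefSeq start of its window. That start lies inside the GENCODE locus of C1ra, which begins at 124512405, near the 5′ end of the window. By the GENCODE start most of the window, with both motifs, is within the gene. C1s1 held a C/EBP motif that starts 242 bases before its start, outside the window of its second RefSeq start, which held none of the 5 motifs. RefSeq promoters were matched for 6 of the 8 genes. C3 had a C/EBP motif that starts 45 bases before its start, and Cd55 and Cfd had none of the 5.

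The KPCAf/f lines with the most C1ra were those with the lowest epithelial level. The mean log2(normalized count + 1) of the 8 epithelial genes was 6.92, 11.85, 11.30, 10.38 and 11.73 in KPCAf/f lines A1693, A1809, A1925, A2441 and A3992, and 12.11 to 12.62 in KPC lines. The 3 KPCAf/f lines with the lowest epithelial level had 185 to 327 normalized counts of C1ra, the other KPCAf/f lines 52.4 and 59.0, and the KPC lines 18.5 to 45.4. C1s1 had the same split, with A1693 at 84.6 the lowest of the 3. This is an order over 10 lines and was not tested. The summed fibroblast list gave the same split, with 88400, 25838 and 19544 normalized counts in A1693, A2441 and A1925, and 17195 and 14717 in A1809 and A3992. By mean log2 level the list gave another order, with 8.74, 7.81, 7.28, 7.01 and 6.98 in A1693, A3992, A1925, A1809 and A2441. Its part in the C1ra and C1s1 values was not tested.

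**Figure D2:**
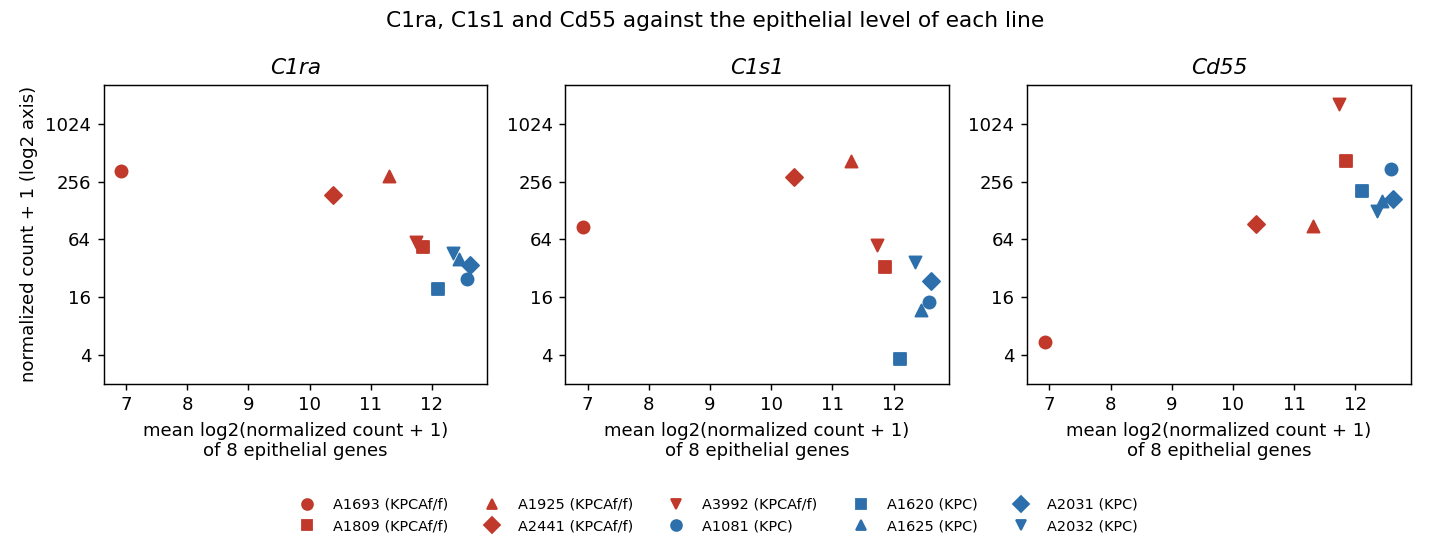
Normalized count + 1 (log2 axis) of C1ra, C1s1 and Cd55 against the mean log2(normalized count + 1) of 8 epithelial genes; each symbol is 1 of 10 lines, KPCAf/f in red and KPC in blue. A1693, at an epithelial level of 6.92, has 327 normalized counts of C1ra and 4.5 of Cd55, and the KPC lines, at 12.11 to 12.62, have at most 45.4 of C1ra.

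Serping1 encodes C1 inhibitor, the secreted serpin that inactivates C1r and C1s and also kallikrein. Its locus is chr2:84765387-84775444 (GRCm38, minus strand). Serping1 had 23.4, 2.46, 123, 1157 and 122 normalized counts in KPCAf/f lines A1693, A1809, A1925, A2441 and A3992, against 3.79, 0, 0, 1.12 and 4.12 in KPC lines A1081, A1620, A1625, A2031 and A2032. A1809, with 3 reads, lay inside the KPC range, the other 4 KPCAf/f lines lay above it, and A2441 alone held most of the KPCAf/f total. The means were 285 ± 490 in KPCAf/f lines and 1.81 ± 2.02 in KPC lines (SD, n = 5 each), a 158-fold ratio that rests on 9 reads over the KPC lines; without A2441 the KPCAf/f mean was 67.6 ± 63.7 (n = 4). Since 4 lines reached 10 normalized counts, the gene missed the filter and was compared by itself. The log2 difference was 4.95 (two-sided exact permutation p = 0.0238, n = 5 lines per genotype, where the smallest p that 252 splits allow is 0.00794). This p is not adjusted over genes. With no filter, limma over all genes with a read gave an adjusted p of 0.103, and the exact permutation p without A1620 and A1693 was 0.0857 (n = 4 lines per genotype).

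Cd55 encodes decay-accelerating factor, a membrane regulator that breaks up the C3 convertases. Its locus is chr1:130439027-130462744 (GRCm38, minus strand). Cd55 had 4.5, 417, 86.0, 91.1 and 1634 normalized counts in KPCAf/f lines A1693, A1809, A1925, A2441 and A3992, against 347, 205, 158, 167 and 126 in KPC lines A1081, A1620, A1625, A2031 and A2032. The KPC lines spanned 2.76-fold and the KPCAf/f lines 363-fold, with A3992 and A1809 above every KPC line and the other 3 below every KPC line. The low end of the 363-fold span rests on 5 reads in A1693. The means were 446 ± 682 in KPCAf/f lines (150 ± 183 without A3992, n = 4) and 201 ± 86.9 in KPC lines. The fitted log2 fold change was -0.60 (SE 1.2, limma adjusted p = 0.832), opposite in sign to the difference of the means, and it was 0.52 without A1693 (adjusted p = 0.804). No direction is given for this gene. Its copy Cd55b, which shares 10.7% of the 50-base windows of the longest Cd55 transcript, had no read in any line.

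C3 encodes the component whose cleavage releases the C3a peptide and the C3b opsonin. Its locus is chr17:57203970-57228136 (GRCm38, minus strand). C3 had 9.0, 369, 96.1, 251 and 3.52 normalized counts in KPCAf/f lines A1693, A1809, A1925, A2441 and A3992, against 30.3, 2.65, 9.78, 192 and 16.5 in KPC lines A1081, A1620, A1625, A2031 and A2032. High and low lines occurred in both genotypes, with a span of 105-fold among KPCAf/f lines and 72.6-fold among KPC lines. The low ends of these spans rest on 4 reads in A3992 and 2 reads in A1620. The means were 146 ± 160 in KPCAf/f lines (89.8 ± 115 without A1809, n = 4) and 50.3 ± 80.0 in KPC lines (14.8 ± 11.8 without A2031, n = 4). The log2 fold change was 1.32 (SE 1.38, limma adjusted p = 0.671). It ranged from 0.62 to 2.21 over the alternatives, none past the threshold (adjusted p 0.451 to 0.860).

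Cfb encodes factor B, the protease of the alternative-route convertase. Its locus is chr17:34856374-34862518 (GRCm38, minus strand), overlapping the annotated gene Gm20547 on the same strand; Gm20547 was listed at 0 in every line, and how reads over both genes were assigned is not given. Cfb had 0, 13.1, 44.7, 18.0 and 67.8 normalized counts in KPCAf/f lines A1693, A1809, A1925, A2441 and A3992, against 55.9, 1.32, 45, 118 and 52.6 in KPC lines A1081, A1620, A1625, A2031 and A2032. Each genotype had 1 line at or near 0, A1693 and A1620. The means were 28.7 ± 27.2 in KPCAf/f lines (18.9 ± 18.8 without A3992, n = 4) and 54.6 ± 41.9 in KPC lines (log2 fold change -1.11, SE 1.28, limma adjusted p = 0.701). The fold change was -0.12 without A1693 and -2.06 without A1620, and no alternative passed (adjusted p 0.376 to 0.968).

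Cfd encodes factor D (adipsin), the adipocyte-rich protease that cleaves factor B. Its locus is chr10:79890853-79892655 (GRCm38, plus strand). It had 0 reads in each of the 10 libraries, which allows up to 3 reads per library, or 2.46 normalized counts in A1809 to 3.97 in A1620, for counting error only. The 8 adipocyte genes summed to 383 to 2623 normalized counts in KPCAf/f lines and 1750 to 3597 in KPC lines. Of these genes 3 were tested and 0 called by limma: Pparg averaged 1130 ± 839 in KPCAf/f lines and 2186 ± 643 in KPC lines (adjusted p = 0.280), Cidec 106 ± 101 in KPCAf/f lines and 199 ± 53.5 in KPC lines (0.423), and Lpl 358 ± 304 in KPCAf/f lines and 23.3 ± 33.4 in KPC lines (0.0605). Lep had 0 reads in all 10 lines, and Adipoq had at most 1.8 normalized counts in a KPCAf/f line and 2.24 in a KPC line. No comparison between genotypes was made for Cfd.

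Compared per kilobase of longest transcript, Cd55 had the highest level of the 8 genes in all 5 KPC lines, from 40.1 normalized counts per kilobase in A2032 to 111 in A1081. The leading gene differed among KPCAf/f lines. It was C1ra in A1693 at 110 per kilobase, C1s1 in A1925 at 142, Serping1 in A2441 at 654, and Cd55 in A1809 at 133 and in A3992 at 521. Single lines stood out across several genes. KPC line A2031 had the highest KPC value of C3, Cfb and Cd59a, and A1620, the line with the transcript-length trend, had the lowest KPC value of C3, Cfb, C1ra and C1s1. After a correction for transcript length the log2 fold changes were 1.08 for C3, -1.10 for Cfb, 2.14 for C1ra and 3.0 for C1s1, and none of these 4 passed (limma adjusted p 0.0962 to 0.730). KPCAf/f line A1809 had the lowest KPCAf/f value of C1ra, C1s1 and Serping1 and the highest of C3.

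**Figure D3:**
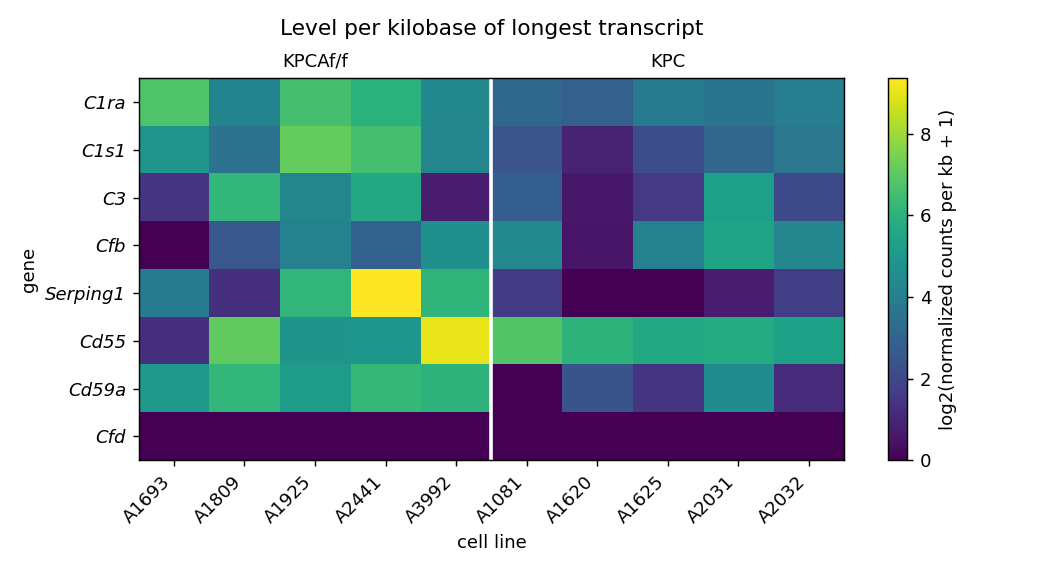
Level of the 8 complement genes (rows) in 10 lines (columns, KPCAf/f left of KPC) as log2(normalized counts per kilobase of the longest annotated transcript + 1). Cd55 leads in every KPC line, while KPCAf/f lines are led by C1ra (A1693), Cd55 (A1809 and A3992), C1s1 (A1925) or Serping1 (A2441).

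Among 47 other genes of the cascade, its receptors and regulators, 17 were tested, 24 had reads but missed the filter and 6 had no read in any line. Of the 17 tested, 1 rose and 0 fell in KPCAf/f lines by limma, where 1.36% of all tested genes were called higher and 0.39% lower. At an unadjusted p under 0.05, 2 were higher and 2 lower, near the shares of 8.39% and 6.26% among all tested genes. Their median log2 fold change was -0.24. The gene that rose, Cd93, met the filter through the KPCAf/f lines alone, so its call is not read against these shares.

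Cd93, a lectin-like membrane protein of endothelial and myeloid cells once described as a C1q receptor, was the gene that rose, to 99.4 ± 47.9 normalized counts in KPCAf/f lines, against 1.97 ± 2.32 in KPC lines (1.05 ± 1.22 without A1081, n = 4; log2 fold change 5.32, SE 0.62, limma adjusted p = 0.00130). KPCAf/f lines held 60.6 to 164 and KPC lines 0 to 5.68, and the call was kept in all 21 alternatives (adjusted p up to 0.0100). No KPC line reached 10 normalized counts, so Cd93 entered the test only through the genotype where it was high. Endothelial markers overlapped between genotypes, with summed levels of 12.6 to 677 normalized counts in KPCAf/f lines and 12.4 to 440 in KPC lines, and 1 of the 5 listed genes met the filter and was not called by limma. The highest sums were mostly Cdh5, at up to 644 in a KPCAf/f line and 415 in a KPC line. Pecam1 had at most 6.75 in a KPCAf/f line and 5.68 in a KPC line. Leukocyte markers also overlapped, at 403 to 2403 in KPCAf/f lines and 831 to 1659 in KPC lines. On average most of this sum was Cd14, at 1120 ± 826 in KPCAf/f lines and 1247 ± 300 in KPC lines. The leukocyte gene Ptprc averaged 3.12 ± 3.80 in KPCAf/f lines and 4.60 ± 3.82 in KPC lines, so these sums say little about leukocytes. The C1q genes C1qa, C1qb and C1qc, which macrophages express, had at most 2.64 normalized counts in any line. The fibroblast list separated the genotypes as given for Cd59a, and its part in the Cd93 and Serping1 values was not tested.

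The remaining genes named by smallest p did not pass. C4bp, the alpha chain of the inhibitor that binds C4b, averaged 9.21 ± 13.5 normalized counts in KPCAf/f lines and 51.9 ± 22.8 in KPC lines (log2 fold change -3.55, limma adjusted p = 0.113). Without A1925 its KPCAf/f mean was 3.71 ± 6.38 (n = 4), and the difference passed (log2 fold change -4.29, limma adjusted p = 0.0381). C1rl, a C1r-like protease gene 1761 bases from C1ra, averaged 125 ± 89.4 in KPCAf/f lines and 42.5 ± 26.1 in KPC lines (log2 fold change 1.39, adjusted p = 0.313). Cd46, a membrane cofactor whose mouse form is best known from testis, averaged 7.91 ± 4.98 in KPCAf/f lines and 18.0 ± 7.22 in KPC lines (adjusted p = 0.348), and the mitochondrial protein gene C1qbp 3429 ± 1160 in KPCAf/f lines and 5688 ± 2079 in KPC lines (adjusted p = 0.267). Cr1l, or Crry, the broadly expressed rodent membrane regulator, averaged 652 ± 260 in KPCAf/f lines and 645 ± 84.2 in KPC lines (adjusted p = 0.938).

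**Figure D4:**
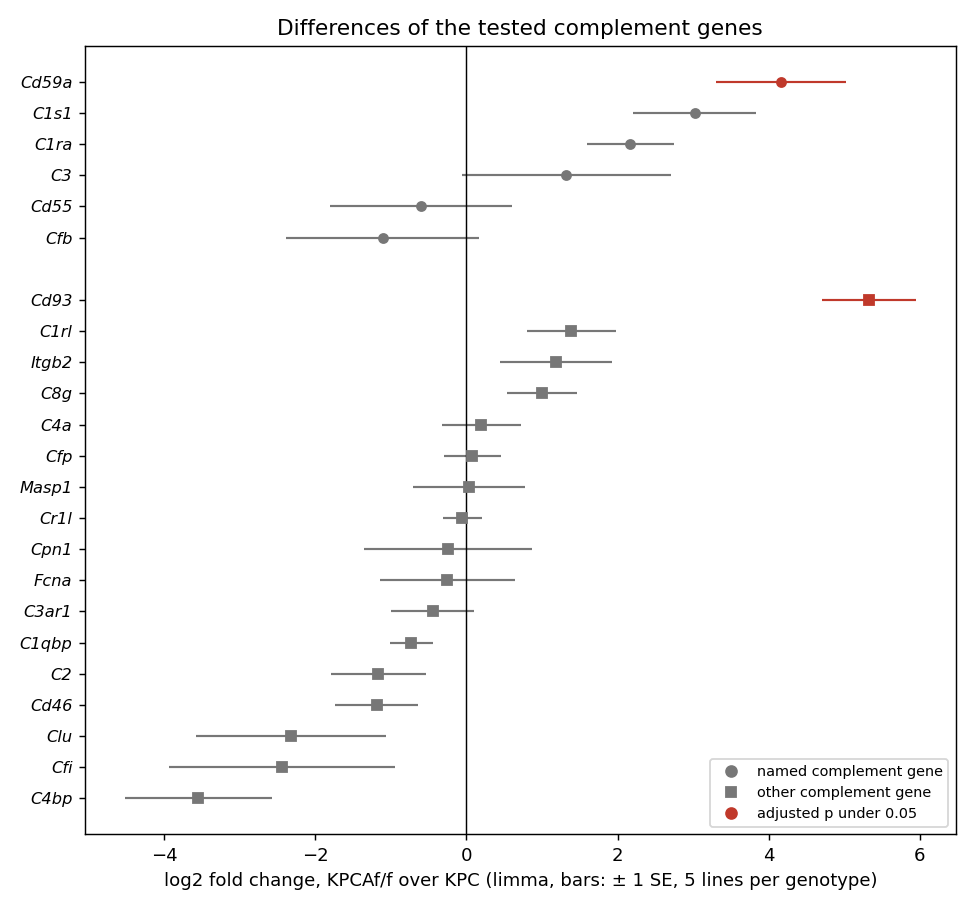
Log2 fold change, KPCAf/f over KPC, of the 6 tested complement genes (circles) and of 17 other tested genes of the cascade (squares); bars are ± 1 SE from limma and red marks an adjusted p under 0.05. Cd59a (4.16) and Cd93 (5.32) are marked, and C4bp (-3.55) is the most negative. Cd93 met the filter on low counts through the KPCAf/f lines alone, and those lines were also enough for Cd59a to meet it.

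Of 22 genes linked to the induction of complement genes, a list that also holds the inhibitor Socs3, 18 were tested. By limma 0 of them rose and 1 fell, where 1.36% of all tested genes were called higher and 0.39% lower. At an unadjusted p under 0.05, 4 were higher and 3 lower, where 8.39% and 6.26% of all tested genes were. The one that fell was Nr1h4, the bile acid receptor FXR, at 22.6 ± 18.4 normalized counts in KPCAf/f lines (14.7 ± 6.35 without A2441, n = 4) and 106 ± 20.6 in KPC lines (log2 fold change -2.44, SE 0.48, limma adjusted p = 0.0283). Its call was lost without any 1 of A1081, A1620, A1625, A2031, A2032, A1693 or A1925 (adjusted p 0.0528 to 0.0787), without A1620 and A1693 together (0.106) and with edgeR (0.0680). Cebpd, a C/EBP factor of the acute-phase response, held 94.4 to 330 in KPCAf/f lines and 12.7 to 73.2 in KPC lines without overlap (log2 fold change 2.18, SE 0.51, limma adjusted p = 0.0623). It passed with DESeq2 (adjusted p = 0.00203) and with limma array weights (0.0188). Osmr, the oncostatin M receptor, averaged 215 ± 199 in KPCAf/f lines and 20.8 ± 22.7 in KPC lines (13.3 ± 17.9 without A2032, n = 4; limma adjusted p = 0.131; 0.0116 with DESeq2 and 0.0254 with array weights), and its partner Il6st 2989 ± 1037 in KPCAf/f lines and 1490 ± 605 in KPC lines (adjusted p = 0.231). Socs3, an inhibitor of this signalling, averaged 536 ± 203 in KPCAf/f lines and 857 ± 203 in KPC lines (adjusted p = 0.291), and the interferon-gamma receptor chain Ifngr1 2228 ± 2058 in KPCAf/f lines (1377 ± 903 without A3992, n = 4) and 3827 ± 927 in KPC lines (adjusted p = 0.313).

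Genes with the most similar profiles over the 10 lines were found by the root mean square (RMS) difference of centred log2 values. For C1ra these were Rbpms2, Nab2 and C1rl, with RMS differences of 0.44, 0.49 and 0.54 beside an SD of 1.45 for C1ra itself. For C1s1 they were Cdk14, Slc7a2 and Adamts7 (0.71, 0.76 and 0.86, SD 2.08), and for Cd55 Ptprb, Tmem125 and Lrtm2 (0.70, 0.75 and 0.76, SD 2.10). Cfb was closest to Itga2, Scml4 and Gpm6b (0.95, 0.95 and 0.96, SD 2.24). Cd59a was closest to Angpt4, Rbms3 and Mme (1.13, 1.143 and 1.21, SD 2.59), and C3 to Zmynd15 and Pitpnm3 (1.34 and 1.40, SD 2.46). Angpt4 met the filter through the KPCAf/f lines alone, with 13.2 to 30.3 normalized counts there and at most 1.12 in a KPC line. C3 and Cd59a had no match as close as those of the other members. These are descriptions over 10 lines that share the genotype split.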

How the data were processed

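The deposited table gives, for each line, a signal of 0 or more per gene, which the authors made by dividing read counts by DESeq2 size factors. Per the submitters' processing notes, the tools included STAR 2.5.2b and Subread 1.5.0p3, and the builds GRCm38.p5 and mm9 are both named with no role. The counting annotation, its strand setting and its treatment of reads that fit several genes are not stated. Per the labels' protocols, libraries were stranded mRNA libraries (Illumina TruSeq). Dividing out what 1 read is worth gave whole reads within 0.001 read for 100.0% of values in every library, and count tests were run on these reads.

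log2(normalized count + 1) values of all 10 lines were fitted by limma 3.58.1 (R 4.3.3; trended variance, two-sided) with no covariate, since the labels give no batch or pairing. A fold change on this scale understates the change of low genes. Alternatives were pseudocounts of 0.5 and 5, a mean filter of 100 or none, TMM and quantile scaling, array weights, limma-voom, DESeq2 1.42.0, edgeR 4.0.16, a per-library loess fit to transcript length, and leaving out each line or A1620 with A1693. The scripts were tested on simulated data. GENCODE M21 (GRCm38) gave coordinates and lengths, with a length for 95.5% of symbols, and RefSeq gave promoters. Genes and lists were chosen with earlier results of these data known. Named by rule were the 8 genes, their copies, genes past the threshold and up to 6 by smallest p of the cascade and inducer lists, and the 3 closest profiles of each gene with an SD of at least 1. Some genes that this rule names are not reported here, and the counts of the cascade list leave them out. Cr1l and the C1q genes were named after their values were seen. Figures were drawn with matplotlib 3.10.9.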

Additional observations from a re-analysis of the deposited data

Results flagged for a closer look

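Among 38 groups of 5 lines, 4 held a line far from the others in unlogged normalized counts, and each was a high value. The rule's chance rate of about 1 in 20 is for normally distributed values. Unlogged counts spread more widely at the high end, so the 4 flags cannot be weighed against that rate and are descriptions only. KPC line A2031 stood apart in 2 genes: C3 at 192 normalized counts, where the next KPC line had 30.3, and Cd59a at 40.2, where the next had 7.95. KPCAf/f line A2441 stood apart in Serping1 at 1157 normalized counts, where the next KPCAf/f line had 123. KPCAf/f line A3992 stood apart in Cd55 at 1634, where the next KPCAf/f line had 417.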

How the results depend on the processing

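No paired analysis was possible because the labels give the lines no shared replicate number. With 1 line left out in turn, limma called 122 to 227 of all genes higher, 24 to 91 lower, and 0 to 1 of the complement genes higher. Without A1620 and A1693 together it called 0 complement genes higher. With a mean filter of 100 it called 109 genes higher and 22 lower, and 0 complement genes higher, because Cd59a was outside that filter. The other settings that moved a count by over 1.5 times were limma-voom (76 higher and 29 lower), DESeq2 (521 and 210, with 3 complement genes higher), array weights (403 and 183, with 3 complement genes higher), edgeR (27 lower and 0 complement genes higher) and quantile scaling (0 complement genes higher, Cd59a at adjusted p = 0.0504); beyond the filter, the cause was not tested. The fitted log2 fold change of Cd55, -0.60, turned positive with edgeR (1.15), with DESeq2 (1.139) and without A1620 and A1693 (0.56), and ran from -1.53 to 0.52 with 1 line left out, positive without A1693; none passed the threshold. No other complement gene reversed. Serping1 could not be fitted by the count tests, array weights, quantile scaling or the length correction, since it was outside the filtered genes. Below about 10 normalized counts, values rest on a few reads.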

Other observations

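The inflammatory cytokine genes of the inducer list missed the filter, and their values by line are given here after being seen. Among KPCAf/f lines Il1a had 1515 normalized counts in A1809 and at most 5.62 elsewhere, against 0 to 22.7 in KPC lines. Among KPCAf/f lines Tnf had 117 in A1809, 33.7 in A2441 and at most 2.53 elsewhere, against 50.3 in A2031, 59.8 in A2032 and 0 to 4.89 in the other KPC lines. KPCAf/f line A1809 had 65.5 of Il6 and the others at most 14.1, against 0 to 1.03 in KPC lines. A1809, A2441 and A2031 were the lines with the most C3, at 369, 251 and 192, whereas A2032 had 16.5. KPCAf/f line A1925 came next in C3, at 96.1, with 2.53 of Tnf, 0 of Il1a and 4.22 of Il6. A relation between these cytokine genes and C3 was not tested.

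Susd4 and C9 were each highest in a single line. Susd4, a membrane regulator of complement, had 435 normalized counts in KPCAf/f line A1809 and at most 18.0 in the others, against 0 to 5.30 in KPC lines. C9, a component of the lytic pore, had 24.7 in KPCAf/f line A2441 and at most 6.17 in the others, against 0 to 2.65 in KPC lines. Cfi, which encodes the protease factor I, was highest in A3992 among KPCAf/f lines, at 490, and in A2031 among KPC lines, at 373, and was 0 in A1693.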
